A study of Homo sapiens with 12 samples.

Results

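The insulin receptor (IR) ChIP-seq of HepG2 cells, a line from a human hepatocellular carcinoma, gave 1971 peaks, and the strong peaks at gene starts are described here. They were chosen from the peak table by a distance of at most 1000 bp to the nearest transcription start site and a peak score above 79, which selected 591 of the 1971 peaks. A further 475 peaks lay as close to a start with a score of 79 or less and are called weak start-site peaks. By the same distance of the peak table, 905 peaks lay farther away. Some of these still lay within 1 kb of the start of a gene in the RNA-seq counts. At 42 of the 905, such genes started on both strands within 1 kb. ChIP-seq sequences the DNA pulled down with an antibody, here against IR, and the table came from 1 library, so no peak has a replicate check. The input library was not analysed here. The label of the ChIP-seq library gives EMEM medium for 2 days, then insulin and BSA for 2 days, a washout of 30 min, and 3 nM insulin. RNA-seq came from 10 libraries of HepG2 cells at 0, 5, 10, 30 and 240 min after insulin by their titles, with 2 replicates at each time. The treatment label of each RNA-seq library, 0 min included, gives EMEM for 16 h and 3 nM insulin for 5 min, so the times rest on the titles. The extraction text of each assay describes the other assay, and whether the treatment texts were exchanged too cannot be told from the labels. All libraries share the line and the growth medium with FBS. Nothing in the labels says that the replicates were separate cultures, so p-values measure the spread between these libraries.

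IR is a receptor tyrosine kinase of the cell surface that binds insulin and signals through the AKT and ERK kinases, and in liver cells this raises lipid synthesis and lowers the production of glucose. A part of the receptor has been found in the nucleus and on chromatin, which is the question the ChIP-seq addresses. Many promoters of housekeeping genes carry a sequence in which ACTACA is followed, after a short gap, by TCCCA. It is known as a recognition sequence of the zinc finger protein ZNF143 and of THAP11, which work with the coregulator HCF-1.

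The sequences at the 6 highest-scoring peaks with a tested gene are shown first. All 6 carried this arrangement or a shorter form of it, but the shorter form was set after the highest-scoring sequences were read. The pair KBTBD6 and KBTBD7 is shown because near-identical sequence stood at both peaks, and it was chosen after its values were seen. TIMM22, a gene at which the study looked for IR, is shown for contrast. Sequences were read from GRCh37, the build hg19 of the peak table. Capitals mark ACTACA and, 2 bases on, TCCCA in the first and second sequences. In the 6 that follow, capitals mark ACTAC and, 3 bases on, TCCC. Neither form was found in the central 300 bp of the TIMM22 peak.
RANBP10 (chr16:67840630-67840702, minus strand): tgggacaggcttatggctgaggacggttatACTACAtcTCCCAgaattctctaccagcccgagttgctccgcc
CHMP4B (chr20:32399015-32399087, minus strand): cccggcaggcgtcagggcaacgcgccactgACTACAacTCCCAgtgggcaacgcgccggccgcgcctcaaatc
CALCOCO1 (chr12:54121385-54121434, minus strand): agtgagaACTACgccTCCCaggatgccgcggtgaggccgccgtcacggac
FEM1A (chr19:4791593-4791665, minus strand): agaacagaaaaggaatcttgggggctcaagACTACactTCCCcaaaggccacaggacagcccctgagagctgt
PHF13 (chr1:6673728-6673800, plus strand): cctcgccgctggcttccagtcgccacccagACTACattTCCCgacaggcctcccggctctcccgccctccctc
FBXL19-AS1 (chr16:30934283-30934355, plus strand): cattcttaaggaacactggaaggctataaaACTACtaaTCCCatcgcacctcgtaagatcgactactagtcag
KBTBD6 (chr13:41706923-41706995, plus strand): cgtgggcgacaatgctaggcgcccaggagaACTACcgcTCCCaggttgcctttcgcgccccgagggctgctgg
KBTBD7 (chr13:41768670-41768742, plus strand): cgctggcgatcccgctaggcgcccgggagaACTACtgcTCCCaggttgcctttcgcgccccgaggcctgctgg
TIMM22 (chr17:900206-900278, plus strand): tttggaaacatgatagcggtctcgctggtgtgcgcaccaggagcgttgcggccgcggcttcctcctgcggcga

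ACTACA was searched on both strands of the central 300 bp of each peak, and stood in 333 of the 591 strong peaks (56.35%, 95% Wilson interval 52.3% to 60.3%). It stood in 44 of the 475 weak start-site peaks (9.26%, 6.97% to 12.2%) and in 227 of the 905 farther peaks (25.1%, 22.4% to 28.0%). As a background, 300 bp windows at 13854 starts of tested genes, from 250 bp before to 50 bp after the start, held it in 1335 cases (9.64%, 9.16% to 10.1%). The interval of the strong peaks overlapped none of the others, and that of the weak peaks overlapped the background. The longer ACTACAA, which overlaps ACTACA, stood in 201 strong peaks (34.0%), 17 weak peaks (3.58%) and 3.76% of all starts. ACTACAA was among the sequences planned for the search, and the shorter ACTACA was chosen after values were seen. Intervals cover counting error only, and a match is a description of the letters, not a bound site.

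Where TCCCA followed ACTACA, it nearly always stood at the same distance. The 591 windows held 451 copies of ACTACA, of which 232 (51.4%) had TCCCA exactly 2 bases on, 8 had it at another gap of up to 20 bases, and 211 had none. The full element, ACTACA 2 bases before TCCCA, stood in 203 strong peaks (34.35%, 30.6% to 38.3%), in 17 weak peaks (3.58%, 2.25% to 5.66%), in 141 farther peaks (15.6%, 13.4% to 18.1%) and at 382 of the 13854 starts (2.76%, 2.50% to 3.04%). With the shorter form, ACTAC 3 bases before TCCC, allowed as well, the strong share was 53.3% (315 peaks), against 6.74% (32) of weak peaks and 4.31% (597) of all starts. The full element was not among the sequences planned, and the shorter form was added after the highest-scoring sequences were read. A strong peak often held several copies, with at least 2 of ACTACA in 103 peaks.

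The share with the element fell with the score by which the peaks were selected. Of the 92 peaks with a score over 1000, 42 held the full element (45.65%, 35.9% to 55.8%), as did 66 of the 159 over 300 and up to 1000 (41.5%), 57 of the 148 over 150 and up to 300 (38.5%) and 38 of the 192 up to 150 (19.8%, 14.8% to 26.0%). Either form stood in 76.1% of the peaks over 1000 and in 30.7% of those up to 150, and these intervals, 66.4% to 83.6% and 24.6% to 37.6%, did not overlap. The peaks over 1000 include the highest-scoring ones, which had been read before the shorter form was set. Neighbouring classes above 150 had overlapping intervals for the full element.

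**Figure D1:**
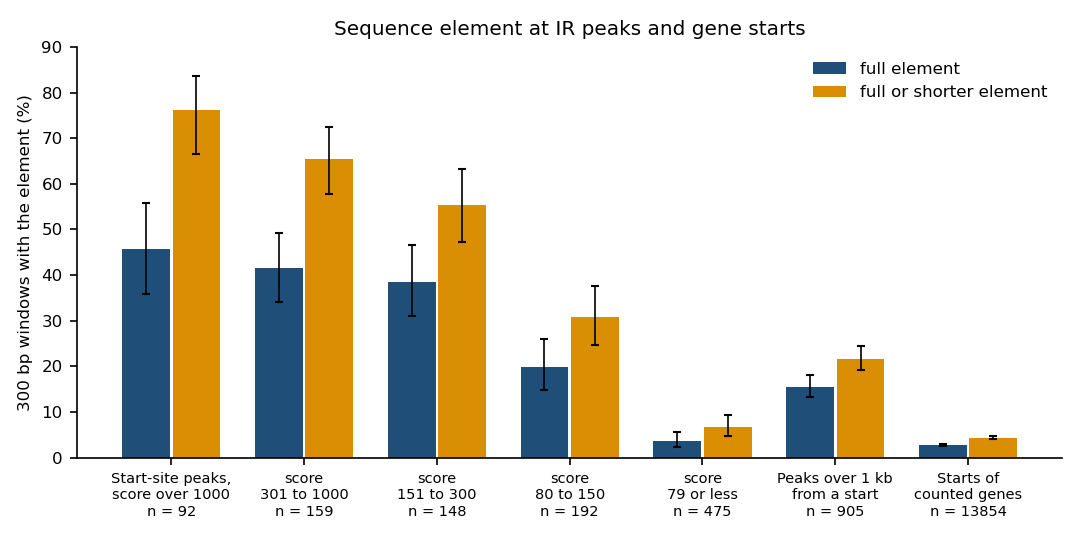
Percent of 300 bp windows (vertical axis) that held ACTACA 2 bases before TCCCA (blue) or either that or ACTAC 3 bases before TCCC (orange), by class of peak and at starts of tested genes, with 95% Wilson intervals as error bars. The share ran from 76.1% for either form in peaks scoring over 1000 to 4.31% at all starts, with the weak start-site peaks at 6.74%. The form with ACTAC and TCCC was set after the highest-scoring sequences were read.

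Read from the genome instead of from the peaks, the element marked starts with IR peaks. Of the 382 starts with the full element, 192 (50.3%, 45.3% to 55.3%) had a strong peak within 1 kb and 279 (73.0%) had a peak of any score. Of the 13472 starts without it, 487 (3.62%, 3.31% to 3.94%) had a strong peak and 10.3% a peak of any score. The element lay close to the gene. In 161 strong peaks it could be placed against the start of the counted gene, and there its median position was 47 bp upstream, with 72.0% upstream of the start and 75.8% within 200 bp of it. It stood on the strand of the gene in 88 of these 161 peaks (54.7%, 47.0% to 62.2%), so neither orientation prevailed beyond counting error.

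**Figure D2:**
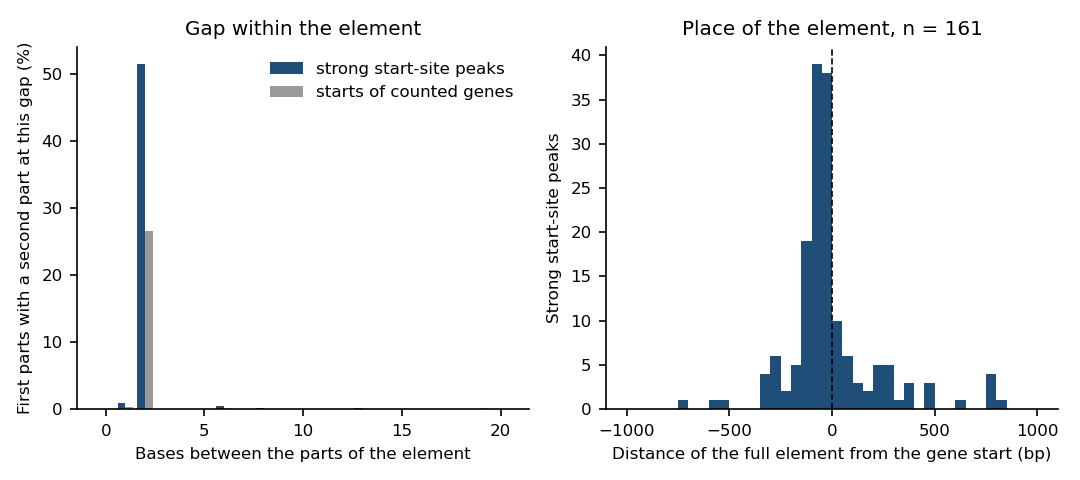
Left, percent of ACTACA copies (vertical axis) by the number of bases to the next TCCCA (horizontal axis), in strong start-site peaks (451 copies, blue) and at starts of tested genes (1552 copies, grey). Right, number of strong peaks by the distance in bp of the full element from the gene start, negative upstream, for 161 peaks. A single gap of 2 bases stands out at both, and positions gather just upstream of the start.

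Other promoter sequences searched on both strands differed less. The ETS core CCGGAAG stood in 22.5% of strong peaks (19.3% to 26.0%), against 16.2% of weak peaks and 16.2% of starts. The SP site GGGCGGG stood in 46.5% of strong and 60.0% of weak peaks, with 49.4% of starts. CCAAT, bound by NF-Y, stood in 34.35% of strong and 25.5% of weak peaks (30.6% to 38.3% and 21.8% to 29.6%). At gene starts CCAAT stood in 4988 of 13854 windows (35.2% to 36.8%). That interval overlapped the one of strong peaks and lay above the one of weak peaks. ATGGCGG, read by YY1, stood in 11.0% of strong peaks, 12.2% of weak peaks and 7.33% of starts. NRF1 letters (GCGCATGC) were in 3.22% of strong peaks against 5.17% of starts, the TATA box TATAAA in 2.37% against 6.84%, the E-box CACGTG in 7.28% against 9.21%, TGACGTCA (CRE) in 1.69% against 2.94% and TGACTCA (AP-1) in 1.86% against 2.89%. TCGCGA stood in 7.11% and 5.28%, and the HNF4 core letters CAAAGTCC, known from liver enhancers, in 1.18% of strong peaks and 1.13% of starts. Strong peaks had a median GC content of 64.3%, weak peaks 71.0% and all starts 63.3%.

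Strong peaks had scores from 80 to 12437 with a median of 241, and a median width of 558 bp against 400 bp for weak peaks. HOMER, which annotated the peaks, placed 569 of them (96.3%) in its promoter class, 10 in introns, 9 in exons and 3 at transcript ends. Their centres lay a median of 99 bp upstream of the start, with 432 (73.1%) upstream, against 276 (58.1%) of weak peaks. Counted genes started on both strands within 1 kb of 152 strong peaks (25.7%, 22.4% to 29.4%) and of 23.4% of weak peaks. Chromosome 19, which is rich in zinc finger genes, held 102 of the strong peaks (17.3%) and 41 of the weak ones (8.63%). HOMER's nearest gene was protein-coding for 495 peaks, antisense for 43, a lincRNA for 29, a miRNA for 8 and a pseudogene for 7. At the threshold, 6 peaks scored 80, among them those at ING4, AC104135.4 and ARL6, and 3 peaks scored 79, at MARK4, GGNBP2 and RP11-547D24.3.

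Of the 591 peaks, 515 had a gene in the count table, which made 514 genes, and 498 of these passed edgeR's filter on low counts and were tested. Another 16 genes fell below it, and 76 peaks had no counted gene by HOMER's name or identifier. A start within 1 kb of a strong peak was found for 679 tested genes, 215 of which were not the gene HOMER had named for such a peak, and for 60 of the 76 peaks without a counted gene. The authors counted reads by strand, so antisense partners were kept apart.

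The tested genes at strong peaks had a median expression close to that of all tested genes. At 0 min their median was 23.3 TPM, a unit per length, with medians of 23.3 and 23.8 TPM in the 2 libraries and quartiles at 9.41 and 53.4 TPM. The median was 31.9 TPM for genes at weak peaks and 20.3 TPM for all 13852 tested genes, whose lower quartile was 5.78 TPM. At least 1 TPM was reached by 97.8% of the genes at strong peaks and 90.8% of all tested genes. Low and high levels occurred together, from 0.212 TPM to 5215 TPM in FTL, the light chain of the iron store ferritin, with the apolipoprotein gene APOA1 at 3063 TPM. Score and level were unrelated across the 498 genes (Spearman's rho -0.037, over genes, which are not independent). The liver genes ALB, APOA1, APOB, AFP, TTR, SERPINA1, FGB, HNF4A and GPC3 summed to 42870 to 53410 TPM in the libraries and markers of blood, endothelial and fibroblast cells to 50.8 to 62.5 TPM, nearly all of it CD68, with PTPRC and COL1A2 at 0.

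The highest score, 12437, was at RANBP10 (chromosome 16, 67840145 to 67841071), which encodes a Ran-binding protein. RANBP10 was at 51.7 and 58.4 CPM, counts scaled to library size, at 0 min and stayed between 49.6 and 57.6 CPM up to 30 min, with 36.1 and 36.6 CPM at 240 min. Both late values lay below all 8 earlier ones, and the fold change was 0.655 (log2 -0.61, SE 0.068, adjusted p = 9.45e-07, edgeR). The next score, 8479, was at CHMP4B (chromosome 20, 32398652 to 32399429), an ESCRT-III subunit that cuts membranes, whose counts went from 156 and 162 to 139 and 148 CPM (log2 -0.15, adjusted p = 0.0205, edgeR). CALCOCO1, an autophagy receptor of the endoplasmic reticulum with a score of 7921, had 18.2 and 20.6 CPM before insulin and 18.3 and 17.4 CPM at 240 min, which overlap (adjusted p = 0.219, edgeR). FEM1A, a substrate receptor of a ubiquitin ligase with a score of 7777, rose from 33.5 and 29.9 to 36.9 and 37.3 CPM (log2 0.24, adjusted p = 0.0163, edgeR).

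Among the other genes of the 15 highest scores, FBXL19-AS1 fell (log2 -0.45, adjusted p = 0.00538, edgeR), as did the kinase STK25 (log2 -0.18, adjusted p = 0.00832), and the transcriptional repressor ZBTB7A rose (log2 0.27, adjusted p = 0.00132). The chromatin reader PHF13 (log2 -0.08), the deubiquitinase VCPIP1 (-0.09), the clathrin adaptor subunit AP2S1 (-0.15) and the protease CAPN15 (0.02) did not pass. The falls of CHMP4B and STK25 were not called with limma on TPM, an abundance scaled for length, nor was the rise of FEM1A, which DESeq2 did not call either, and FBXL19-AS1 was not called with limma on log2(TPM + 0.1) or at a mean TPM of at least 1 (adjusted p up to 0.0786). Leaving out 1 library took away the call of CHMP4B without 0 min replicate 2 or 240 min replicate 1 (adjusted p up to 0.190), that of STK25 without 0 min replicate 1 or 240 min replicate 2 (up to 0.0565), and that of FEM1A without 0 min replicate 2 or either 240 min replicate (up to 0.263). The other 4 of the 15 peaks had no tested gene by HOMER's name, and each had a tested gene starting within 1 kb. These were UNK, an RNA-binding protein, at the peak named for MIR4738 (score 4593), GSPT1, the translation release factor eRF3a, at AC007216.1 (4364), SMARCAL1, a helicase of stalled replication forks, at AC098820.2 (3338), and GSK3A, a kinase that insulin signalling inhibits, at AC006486.1 (2836). SMARCAL1 fell from 29.7 and 32.4 CPM at 0 min to 25.5 and 24.3 at 240 min (log2 -0.33, adjusted p = 0.00280, edgeR). GSK3A fell from 48.4 and 47.6 to 42.3 and 39.1 CPM (log2 -0.23, adjusted p = 0.0116, edgeR), a call lost with limma on TPM and without 240 min replicate 2 (adjusted p = 0.0980), as was that of SMARCAL1 without 0 min replicate 2 (adjusted p = 0.0673). UNK (log2 -0.11, adjusted p = 0.265) and GSPT1 (log2 0.06, adjusted p = 0.355) did not pass.

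At 240 min 201 of the 498 genes changed with an adjusted p-value under 0.05 (40.4%, edgeR's quasi-likelihood test), against 41% of all 13852 tested genes. Of these, 92 rose (18.5%, against 20.6% of all tested genes) and 109 fell (21.9%, against 20.4%). The median log2 fold change was -0.030 and that of all tested genes was -0.003, with quartiles of -0.21 and 0.15 at strong peaks. The genes at weak peaks were similar, with 162 of 368 changed (44.02%). The share changed at strong peaks was thus near that of all tested genes. Without the filter on low counts it was 39.6% of 508 genes, against 27.9% of 20553 genes in all. Changes were small. Over all tested genes, 212 of 2847 rises and 128 of 2829 falls reached 1 on the log2 scale. At strong peaks 6 of the 201 did, 2 of the 92 rises and 4 of the 109 falls. Besides KBTBD8, CREBRF and BRD8, described next, these were CHAC2, an enzyme of glutathione breakdown (log2 1.03), ADAT3, of a tRNA deaminase (-1.04), and ITPR1-AS1 (-1.31), the last 3 with means of at most 7.94 CPM at 0 and 240 min. With ERCC spike-in scaling, under which the median of all genes was -0.12, 41 of the 498 changed, 9 higher and 32 lower, which is 8.23% against 7.65% of all tested genes. With limma on TPM of at least 1 on average, 90 were higher and 69 lower, against 2707 and 1770 of all 13266 genes tested so. Spike-ins made up 1.654% and 1.915% in the 240 min replicates and 1.595% and 1.586% in those at 0 min. The 240 min replicates thus differ from each other in this scaling, and whether total RNA fell was not tested. In bulk RNA, fewer cells and less RNA per cell cannot be told apart.

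At the earlier times there was next to nothing. At 5 min 0 of 498 genes passed (background 0%), at 10 min 1 (background 0.137%), and at 30 min 0 (background 0.332%), all with edgeR, and DESeq2 gave 0, 1 and 0. Unadjusted p-values under 0.05 were found for 89 genes at 5 min, 29 at 10 min and 44 at 30 min, which are 17.9%, 5.82% and 8.84% of the 498, against 14.3%, 5.13% and 8.12% of all tested genes. The gene at 10 min was CCL20, a chemokine (peak score 107). CCL20 had 41.7 and 41.7 CPM at 0 min, 39.8 and 46.5 (5 min), 28.5 and 29.6 (10 min), 34.6 and 36.5 (30 min) and 50.1 and 42.2 CPM (240 min). Its values at 10 min lay below all others (log2 -0.52, SE 0.081, adjusted p = 0.00385, edgeR). This call was lost with limma on TPM, and without either 10 min replicate or without 0 min replicate 2 (adjusted p up to 0.157). The comparisons of the 4 times share the 0 min libraries.

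**Figure D3:**
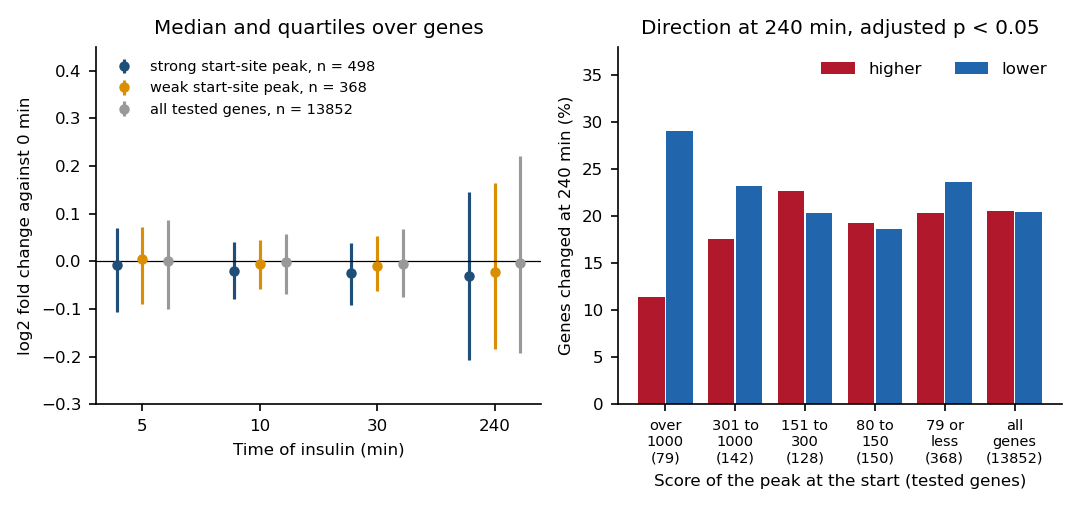
Left, median (points) and quartiles (bars) of the log2 fold change against 0 min over genes at strong peaks (498), at weak peaks (368) and over all tested genes (13852), by time in min. Right, percent of tested genes higher (red) and lower (blue) at 240 min by the score of their peak. The medians of the 3 groups stay near 0 at each time, and genes of peaks over 1000 show 11.4% higher and 29.1% lower.

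The largest rise at 240 min among genes at strong peaks with a mean of at least 5 CPM was that of KBTBD8, a substrate adaptor of the CUL3 ubiquitin ligase. KBTBD8 had 5.52 and 4.94 CPM at 0 min, 5.42 and 5.74 (5 min), 4.86 and 5.62 (10 min), 4.95 and 5.59 (30 min) and 14.2 and 14.3 CPM (240 min). The 8 earlier values overlapped and both late ones stood far above them (fold 2.76, log2 1.47, SE 0.11, adjusted p = 1.06e-08, edgeR). Its relatives with strong peaks differed from each other. KBTBD6 (score 2578) rose from 23.1 and 24.8 to 37.9 and 35.3 CPM (log2 0.61, adjusted p = 2.48e-06, edgeR), while KBTBD7 (score 2567), whose peak holds nearly the same sequence, had 9.23 and 8.76 CPM before insulin and 8.96 and 9.36 CPM at 240 min (log2 0.03, SE 0.11, adjusted p = 0.848). The difference between these neighbouring genes was not tested, and reads shared by the similar pair were not examined.

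PRMT6, an arginine methyltransferase of histones, was between 27.8 and 30.0 CPM in the 8 libraries up to 30 min and at 51.1 and 49.9 CPM at 240 min (log2 0.82, adjusted p = 7.95e-09, edgeR). ZNF26, a zinc finger gene, went from 9.42 and 10.1 CPM at 0 min, with no value over 11.0 up to 30 min, to 19.03 and 19.8 CPM (log2 0.98, adjusted p = 6.45e-08). TTC30A and TTC30B, near-identical genes of intraflagellar transport in cilia, rose by 0.82 and 0.83 on the log2 scale, and reads between them may be exchanged. SNHG12 and MIR22HG, host genes of snoRNAs and of miR-22, rose by 0.80 and 0.78, and CARF, ZNF850 and SETMAR, a histone methyltransferase fused to a transposase, by 0.72, 0.67 and 0.65. The calls of MIR22HG, ZNF850 and SETMAR were lost with ERCC scaling (adjusted p = 0.0516, 0.0686 and 0.1035), and that of MIR22HG also with limma on log2(TPM + 0.1) and with limma at a mean TPM of at least 1.

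The largest fall under the same limit was that of CREBRF, a regulator that lowers the activity of the stress factor CREB3. CREBRF had 26.1 and 28.7 CPM at 0 min, 29.7 and 32.7 (5 min), 28.2 and 26.5 (10 min), 30.6 and 35.6 (30 min) and 11.95 and 9.10 CPM (240 min). Both late values lay far below the others (fold 0.386, log2 -1.37, SE 0.11, adjusted p = 1.40e-08, edgeR). BRD8, a bromodomain subunit of the TIP60 histone acetyltransferase complex, stayed between 82.6 and 89.3 CPM up to 30 min and was at 43.3 and 40.7 CPM at 240 min (fold 0.481, log2 -1.06, SE 0.054, adjusted p = 4.22e-11). ING4, of the HBO1 acetyltransferase complex, stayed between 11.3 and 12.3 CPM and then had 6.40 and 6.52 CPM (log2 -0.86, adjusted p = 2.29e-06).

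CCDC28A fell by 0.90 on the log2 scale, LYSMD1 by 0.84, and PPP1R13L, an inhibitor of p53, by 0.83. KIAA0430, an RNA-binding regulator, fell by 0.75, and MADD, an exchange factor for RAB3, by 0.73. TOR1AIP2, which activates the ATPase torsin, fell by 0.69 and PGM2L1, which makes glucose 1,6-bisphosphate, by 0.67. All 10 kept their call under DESeq2, ERCC scaling and limma on TPM. The fall of PGM2L1 ran from 0.41 to 0.95 on the log2 scale when 1 library was left out, with adjusted p-values up to 0.0271. Of the 20 genes with the largest changes, 7 held the full element, 5 of the rises and 2 of the falls. This is near the share among all tested genes at strong peaks, where 172 of 498 held it.

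**Figure D4:**
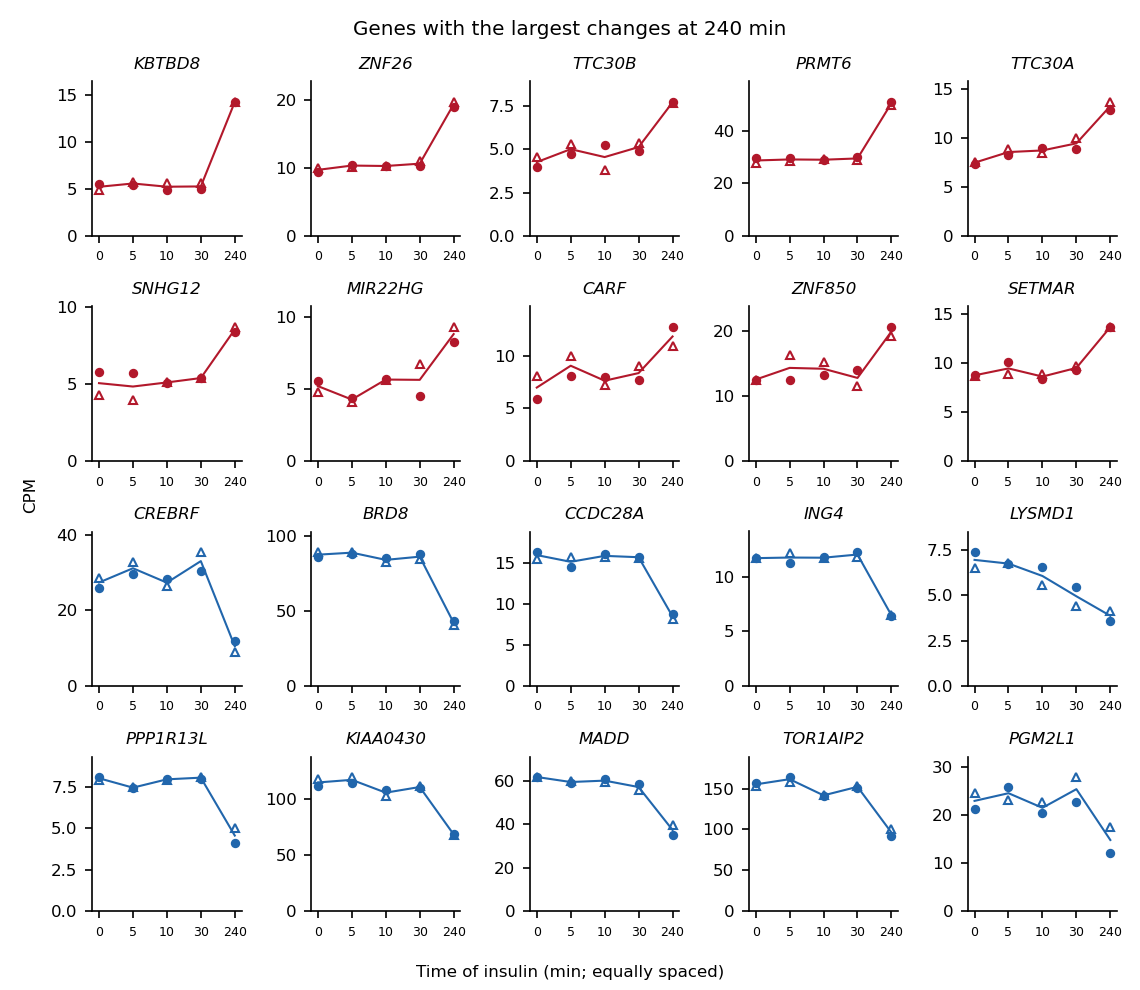
CPM (vertical axes, from 0) at 0, 5, 10, 30 and 240 min (horizontal axis, equally spaced) for the 10 largest rises (red) and 10 largest falls (blue) at 240 min among genes at strong peaks that average 5 CPM or more and whose replicates at 0 and 240 min do not overlap. Filled circles are replicate 1, open triangles replicate 2 and lines the means. KBTBD8, PRMT6, ZNF26, BRD8 and ING4 hold their level up to 30 min and have moved by 240 min, as KBTBD8 does from 4.86 to 5.74 CPM up to 30 min to 14.2 and 14.3 CPM.

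Rises and falls were counted by score. Of the 79 tested genes of peaks over 1000, 9 rose (11.4%, background 20.6%) and 23 fell (29.1%, background 20.4%), and the median log2 fold change was -0.095. For peaks over 300 and up to 1000, 25 rose and 33 fell of 142 genes. For those over 150 and up to 300, 29 rose and 26 fell of 128, and for those up to 150, 29 rose and 28 fell of 150. The gene C2, with 2 strong peaks, counts in 2 of these classes. Across the 498 genes, score and log2 fold change at 240 min had a Spearman's rho of -0.13, given as a description over genes that share the 10 libraries. The score classes were looked at after values were seen, and the difference between them was not tested. Without 240 min replicate 1 the counts over 1000 were 5 and 18, with ERCC scaling 0 and 6, and with limma on log2(TPM + 0.1) 7 and 15. Genes with the full element at their peak were balanced, with 34 rises and 34 falls among 172 (median log2 -0.025).

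**Figure D5:**
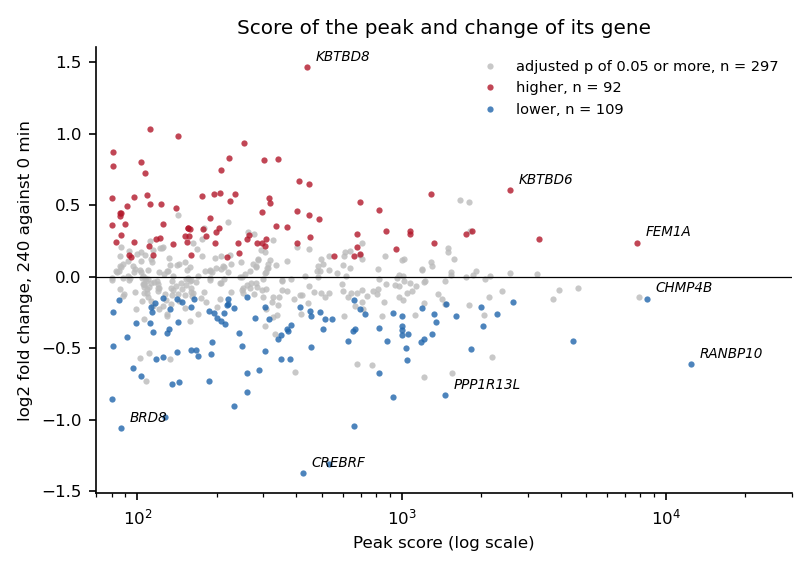
Peak score (horizontal, log scale) against the log2 fold change of the gene at 240 min (vertical) for the 498 tested genes at strong peaks, with 92 higher in red, 109 lower in blue and 297 with an adjusted p of 0.05 or more in grey. Large changes in either direction occur at low scores, as at KBTBD8 (439), CREBRF (425) and BRD8 (87), while RANBP10, with the highest score, is lower by 0.61.

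Strong peaks were found at 3.595% of all tested genes, and the lists of genes compared with this were written with earlier results known. Genes named ZNF, most of them DNA-binding repressors, had one at 49 of 445 tested (11.0%, 8.43% to 14.3%), the highest count from the longest list. At 240 min 19 of the 49 rose and 6 fell, and the median log2 fold change was 0.15, and over the whole ZNF list 169 rose and 50 fell, with a median of 0.18. Without 0 min replicate 2 the counts were 13 and 2, and DESeq2 gave 13 and 3. With ERCC scaling 1 rose and 1 fell of the 49, and the median was 0.044 against -0.12 for all genes. Beside ZNF26 and ZNF850, ZNF200 (12.2 to 18.5 CPM as means of 2 libraries, log2 0.59) and ZNF180 (14.3 to 21.4 CPM, log2 0.58) rose, and ZNF444 (24.4 to 19.2 CPM, log2 -0.34) fell. ZNF genes are alike in sequence, so that reads may be shared between them.

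Of 16 genes of HCF-1 and its partners, 4 had a strong peak. These were THAP11 (score 679) and ZNF143 (656) themselves, HCFC1R1 (281), a regulator of HCF-1, and GABPA (120), which binds the ETS core. ZNF143 fell from 20.6 and 19.02 CPM at 0 min to 14.99 and 15.3 CPM at 240 min (log2 -0.38, adjusted p = 0.00157, edgeR), a call lost with ERCC scaling (adjusted p = 0.108). THAP11 (log2 -0.11, adjusted p = 0.286), GABPA (-0.10, adjusted p = 0.331) and HCFC1R1 (0.08, adjusted p = 0.677) did not pass.

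Other lists had few members at strong peaks. There were 5 of 81 cytosolic ribosomal protein genes, among which RPL23A (log2 -0.36) fell, 4 of 76 mitochondrial ribosomal protein genes, of which MRPL19 (log2 0.37) and MRPS26 (0.34) rose, and 5 of 70 splicing factors, of which HNRNPA0 (0.25) and HNRNPU (0.15) rose and 1 fell. The call of MRPS26 was lost without 0 min replicate 2 (adjusted p = 0.0812), and that of HNRNPU without either 0 min replicate or without 240 min replicate 1 (adjusted p up to 0.111). Ribosomal protein genes have many copies in the genome, so that their counts are uncertain. Of 42 subunits of Mediator and RNA polymerase II 4 had one, and MED15 fell (log2 -0.36). Of 22 genes of mitochondrial import TIMM13 fell (log2 -0.29, lost with limma on TPM and without 0 min replicate 1 or 240 min replicate 1) and TIMM22 rose. The lists of snoRNA hosts (4 of 20), tRNA synthetases (3 of 34), oxidative phosphorylation subunits (5 of 78) and histone methylation enzymes (2 of 39, of which KMT2B fell by 0.26) stood above 5%, each on 5 genes or fewer. In them SNHG12 rose, and MARS (log2 -0.15) and NDUFA3 (-0.43) fell. The call of MARS was lost with DESeq2, with limma on TPM, with only the times compared, and in 7 of the 10 fits without 1 library, those that kept 0 min replicate 2, 30 min replicate 1 and 240 min replicate 2 (adjusted p up to 0.477, the value with 0 min replicate 1 left out). That of NDUFA3 was lost without 0 min replicate 1 or 240 min replicate 2 (adjusted p up to 0.101). Proteasome subunits (1 of 46), translation factors (1 of 62, EIF1B, which rose by 0.34), ubiquitin-conjugating enzymes and proteases (1 of 74, UBE2N, which rose by 0.33), replication licensing genes (1 of 20, ORC4) and cholesterol synthesis genes (1 of 21, FDPS) had 1 each. With ERCC scaling the calls of RPL23A, MRPL19, MRPS26, HNRNPA0, HNRNPU, MARS, NDUFA3, MED15, KMT2B, EIF1B and UBE2N were lost, as were those of ZNF180, ZNF200, ZNF444, KBTBD6, ZBTB7A, FBXL19-AS1, CHMP4B, FEM1A, STK25, SMARCAL1, GSK3A, TSC2, TIMM13 and TIMM22.

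No strong peak had a gene of insulin signalling (0 of 36), lipogenesis (0 of 14), gluconeogenesis (0 of 8) or the immediate early response (0 of 18) as HOMER's gene. The Wilson intervals of these shares reached up to 9.64%, 21.5%, 32.4% and 17.6%. Each includes the 3.595% of all tested genes, so lists this short cannot show that such genes lack strong peaks more often than others. When every gene starting within 1 kb of a strong peak was counted, insulin signalling had 3 of 36 (8.33%, against 4.90% of all tested genes), and the other lists named here still had 0. These counts leave out the peak over the start of FASN, a lipogenic gene. It scored 92, but HOMER assigned it to CCDC57 at 7905 bp, so it is not among the strong start-site peaks. The 3 genes of insulin signalling were GSK3A, TSC2, which restrains mTORC1, at the peak named for NTHL1 (score 844), and SHC1, an adaptor that the receptor phosphorylates, at that of CKS1B (score 108). TSC2 went from 50.6 and 56.1 to 48.6 and 47.0 CPM (log2 -0.17, adjusted p = 0.0375, edgeR), a call lost with DESeq2, with limma on TPM, and without 0 min replicate 2 or either 240 min replicate (adjusted p up to 0.440). SHC1 went from 102.9 and 98.5 to 83.9 and 97.3 CPM (log2 -0.15, adjusted p = 0.0534).

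Some genes that HOMER did not name but that start within 1 kb of a strong peak changed by over 1 on the log2 scale. These 3 were picked after their values were seen. CD3EAP, a subunit of RNA polymerase I, starts at the peak named for PPP1R13L, whose own start is 877 bp away. CD3EAP rose from 18.98 and 16.6 CPM at 0 min to 37.1 and 33.5 CPM at 240 min (log2 1.01, SE 0.082, adjusted p = 2.07e-08, edgeR), while PPP1R13L fell from 8.12 and 7.93 to 4.12 and 5.00 CPM. CEBPA, a transcription factor of hepatocytes, at the peak of CEBPA-AS1 (score 81), rose from 18.1 and 18.9 to 41.9 and 38.9 CPM (log2 1.12, adjusted p = 1.31e-08). MBD5, at the peak of ORC4 (score 120), fell from 21.3 and 20.1 to 9.68 and 9.15 CPM (log2 -1.13, adjusted p = 1.61e-08). All 3 kept their call in each alternative run.

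Of the genes at which the study looked for IR, TIMM22, a channel of the mitochondrial inner membrane, had a strong peak (score 182, chromosome 17, 899963 to 900520), which held neither form of the element. TIMM22 had 16.2 and 15.2 CPM at 0 min, 14.2 and 13.5 (5 min), 15.8 and 16.8 (10 min), 14.4 and 14.6 (30 min) and 18.5 and 19.7 CPM (240 min). The late values lay above the others (log2 0.29, SE 0.083, adjusted p = 0.00919, edgeR), a rise that DESeq2 did not call, and that was lost without 0 min replicate 2 or 240 min replicate 2 (adjusted p = 0.121 and 0.0681). The peak over the start of FASN, the fatty acid synthase, scored 92, yet HOMER assigned it to CCDC57 at 7905 bp. The peak assigned to SREBF1 scored 54 and lay at -7337 bp from the start. Neither peak belongs to the strong start-site peaks. No peak of the table was assigned to INSR, the gene of the receptor.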

How the data were processed

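The authors trimmed the RNA-seq reads with Trim Galore 0.6.4, aligned them to hg19 with STAR 2.6.1d, counted them per gene by strand with featureCounts 1.6.4, and deposited raw counts. They also deposited abundances from StringTie as TPM. ChIP-seq reads were aligned by the authors with BWA 0.7.17-r1188. Peaks were called with MACS2 2.2.7.1, and the deposited table, annotated with HOMER, holds positions and a peak score whose unit is not given in the sources used here. Whether the input served in calling is not given there either, and the table states no sequencing depth.

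Libraries held 18347109 to 45005769 counts of genes. ERCC spike-ins made up 1.59% to 2.36% of genes and spike-ins together, and were left out of these totals, of library sizes and of tests. Replicates differed beyond sampling noise (chi-square per degree of freedom 2.86 to 6.46). Counts were tested with edgeR 4.0.16 (TMM, filterByExpr, quasi-likelihood, 1 model of 10 libraries, Benjamini-Hochberg adjustment over 13852 genes) in R 4.3.3, and genes with an adjusted p under 0.05 counted as changed. Tested on data simulated for 240 against 0 min (13830 genes), the fit recovered 182 of 200 changed genes, and 6.19% of its 194 calls were false. Recovery was not tested separately for changes as small as most of those at strong peaks. It was also not tested with a share of changed genes near the 41% called at 240 min. CPM are scaled by TMM, and standard errors derive from the fold change and its F statistic.

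Peaks were matched to counted genes by HOMER's symbol or, for 7 peaks, its Ensembl identifier. Sequence came from GRCh37. Of 14588 entries for tested genes in the TPM table, 84.2% lay within 100 bp of an annotated start of that build. Genes named are those of the 15 highest scores, the 10 largest rises and falls at 240 min (mean of at least 5 CPM, replicates not overlapping) and up to 5 at the other times, FASN, SREBF1, TIMM22 and INSR, and list members. Others are marked as chosen later. The members and lists were chosen with earlier results of these data known. Alternatives were DESeq2 1.42.0, RLE, ERCC scaling, 2 filters, only the times compared, a replicate block, limma 3.58.1 on TPM with a pseudocount of 1 or 0.1 and with a filter, leaving out each library, another gene of the peak, a score above 200 and a start within 250 bp. Python 3.11.15, pandas 2.3.3, numpy 2.4.6, scipy 1.17.1 and matplotlib 3.10.9 were used.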

Additional observations from a re-analysis of the deposited data

How the results depend on the processing

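The number of genes at strong peaks changed at 240 min was 201 of 498. With ERCC scaling it was 41 of 498 (8.23%, against 7.65% of all tested genes). It was 120 of 289 with a score above 200, 139 of 366 with a start within 250 bp and 291 of 679 with the gene chosen by its start. At 30 min the 0 became 3 of 508 without a filter on low counts (0.59%, against 0.78% of all genes). It became 1 of 492 with limma on log2(TPM + 1) at a mean TPM of at least 1 (0.203%, against 0.0603%). At 5 min the 0 became 4 of 508 without a filter (0.79%, against 0.70%). At 10 min the 1 became 0 with limma on log2(TPM + 1), on log2(TPM + 0.1) and at a mean TPM of at least 1, and with a score above 200, and ran from 0 to 1 with 1 library left out. Leaving out a library gave 0 at 5 and 30 min. The median log2 fold change at 240 min, -0.030, was -0.036 with DESeq2, -0.148 with ERCC scaling, -0.027 without a filter and with only the times compared, 0.0028 with limma on TPM in all 3 forms, -0.036 with the gene of the peak chosen by its start, -0.058 with a score above 200, -0.039 with a start within 250 bp, and -0.036 to -0.029 with 1 library left out. Over all tested genes the median was -0.003, and it was -0.119 with ERCC scaling and 0.028 to 0.034 with limma on TPM. The cause of these shifts was not tested. The share of higher calls, 45.8%, was 21.95% with ERCC scaling and 54.9% to 56.6% with limma on TPM. Over all tested genes this share was 50.2%, 31.3% with ERCC scaling and 60.2% to 60.7% with limma on TPM.

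Replicates shared a number but not a pairing, since correlations of the deviations of same-numbered libraries ran from -0.12 to 0.13, and with a replicate block the changed genes were 206, with a median of -0.035.

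A score above 200 left 330 peaks and 289 tested genes, and a start within 250 bp 418 peaks and 366 genes, while the gene chosen by its start gave 679. The median TPM at 0 min, 23.3, was 22.02 with the higher score, 23.9 with the closer start, 23.6 with the gene chosen by its start, 24.2 at a mean TPM of at least 1, and 23.3 to 23.8 with 1 library left out. The share of peaks with ACTACAA, 34.0%, was 44.2% with a score above 200 and 39.3% in whole peaks, and 53.3% held either form of the element. The remaining values, 94 of 133, moved by less than the spread between replicates or, for counts, by less than 1.5 times. Among genes named, CAPN15 (-0.0914), KBTBD7 (-0.0905), HCFC1R1 (-0.0552) and GSPT1 (-0.0568) were lower with ERCC scaling, and with 1 library left out CAPN15 ran from -0.0915 to 0.114, KBTBD7 from -0.0166 to 0.0631 and HCFC1R1 from -0.0858 to 0.190.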
